A study of Mus musculus with 8 samples.

Results

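The genes described here encode the integrins, the cell surface receptors for extracellular matrix, and the laminins, the basement membrane proteins that several of them bind. They were chosen by symbol alone, and both deposited count tables held 37 of them: 18 integrin alpha genes, 8 integrin beta genes and 11 laminin genes, out of 23478 gene symbols in each table. RNA sequencing was done on mouse embryos at E13.5. Whole tracheas came from embryos labelled Wls flox/flox, ShhCre+ (1 library, called the Wls mutant) and from Wls flox/flox controls (2 libraries). Sorted tracheal cells came from embryos labelled Bmp4flox/flox, γSMAeGFP with a Cre allele (2 libraries, called the Bmp4 mutants) and from Bmp4flox/flox, γSMAeGFP controls without Cre (3 libraries). Mutants and controls of a table therefore share the floxed alleles, and all sorted libraries share the GFP reporter of smooth muscle gamma-actin. Per the labels these cells, called chondroblasts there, were what remained after the sort had taken out EPCAM-positive epithelium and GFP-positive muscle. Shh-Cre acts in the airway epithelium, and the labels do not say in which cells Bmp4 was deleted. Nothing in them tells whether replicate libraries stem from different embryos or from pools, so p-values here reflect the spread among libraries, part of which may be technical.

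An integrin is a pair of 1 alpha and 1 beta chain, and the pair sets what it binds: collagen, laminin, the RGD peptide of fibronectin and related proteins, or ligands on leukocytes and vessels. A laminin is a trimer of 1 alpha, 1 beta and 1 gamma chain that polymerises into the sheet on which epithelia, endothelia, nerves and muscle cells rest. In the developing airway laminins underlie the epithelium and surround muscle and vessels, while the mesenchyme that forms cartilage and fibroblasts holds on to fibronectin and collagens through integrins that share the beta1 chain.

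The targeted genes were lower in the mutants. Bmp4 was at 24.1 and 32.2 CPM in the mutant sorted cells against 124, 99.2 and 121 in their controls. Wls was at 65.8 CPM in the mutant trachea against 153 and 146. CPM are counts scaled to the library total and adjusted by a TMM factor per library. For marker genes and sums over markers they are scaled to the library total alone. The Bmp4 mutants were shallow, with totals of 12964287 and 15462780 counts, against 48876948 to 55492747 in their controls and 24596836 to 31399982 in the tracheas. The sorted controls held cartilage markers, with Sox9 at 710 to 1800 CPM, Col2a1 at 811 to 1410 and Col9a1 at 274 to 419, while Matn1 and Acan were low (0 to 0.161 and 1.47 to 21.1 CPM). Summed over 8 cartilage markers the Bmp4 mutants held 412 and 1130 CPM against 1990 to 3860 in their controls. Other cell types were not absent. Summed over 8 endothelial markers the level was 262 and 206 CPM in the Bmp4 mutants against 26.6 to 124 in controls, and over 9 smooth muscle markers it was 1650 and 287 against 122 to 185. Bmp4 mutant 1 stood apart by its red cell RNA, 108000 CPM over 5 erythroid genes against 1100 in mutant 2 and 29.5 to 7650 in the controls, and results are therefore also given without it. In bulk samples fewer cells of a type and less RNA per cell cannot be told apart.

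Levels in the control libraries are given first, as CPM per kilobase of exon so that genes of different length can be compared. Itgb1, the beta chain shared by most matrix-binding integrins, was the highest member in both kinds of sample. It was at 182, 169 and 136 CPM per kilobase in the sorted controls and at 169 and 161 in the trachea controls, ranges that overlap. In the sorted cells it was followed by Lamb2 (28.8 to 44.6), Lamb1 (25.2 to 39.5), Lama4 (19.6 to 29.7) and Itga5 (16.6 to 27.3), and each of these neighbours overlapped the next. With Lamc1, the common gamma chain, at 8.64 to 10.9, these are the chains of alpha4 laminins with either beta chain and of the fibronectin receptor alpha5 beta1. Itgb5, a vitronectin receptor chain, was at 9.62 to 12.4 and Itga8, the alpha chain of the nephronectin receptor, at a mean of 8.05 CPM per kilobase. Only 7 members had a mean of at least 10 CPM per kilobase there, and 15 had a mean under 1.

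In the trachea controls 9 members had a mean of at least 10 CPM per kilobase. After Itgb1 came Itgb5 (47.4 and 53.8) and Lamb1 (48.6 and 49.3), which overlapped. Lama4 (32.5 and 37.4) overlapped both Lamc1 (36.7 and 40.0) and Itga5 (34.2 and 36.3). Lamb2 (28.0 and 28.9), Itga6 (22.3 and 26.2) and Itga9 (16.9 and 17.3) each lay clear of their neighbours. The tables were made with different kits and from different kinds of sample and were normalised separately, so their levels are set side by side with no test. All trachea controls were above all sorted controls for 20 members, below them for 7, and the ranges overlapped for 10. The share of all genes in these positions was not computed, so the counts do not set the members apart from other genes. Ratios of the means were highest for Lamb3 at 22.8 (1.51 against 0.0662 CPM per kilobase) and Lama5 at 18.9 (9.08 against 0.48). Itga6 at 9.9 (24.2 against 2.45), Itga3 at 7.49 (6.75 against 0.901) and Itga9 at 6.83 (17.1 against 2.51) came next. Itgb4, the partner of Itga6 under epithelia, was at 3.57. The 12 airway epithelial markers summed to 742 and 872 CPM in the trachea controls and to 26.0 to 36.6 in the sorted controls. Endothelial markers summed to 407 and 471 CPM against 26.6 to 124, and smooth muscle markers to 2010 and 1750 against 122 to 185. The 7 members below in tracheas included the leukocyte chains Itgb7, Itgb2 and Itgam, at ratios of 0.13, 0.134 and 0.173, and the 8 leukocyte markers summed to 66.0 and 73.5 CPM in the tracheas against 223 to 453 in the sorted controls. The part of these cell types in the levels was not tested. Levels also varied among the sorted controls themselves. Itga11, a collagen receptor chain, was at 0.393, 0.826 and 3.02 CPM per kilobase, and Itgb7 was at 1.7, 9.08 and 5.08.

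**Figure D1:**
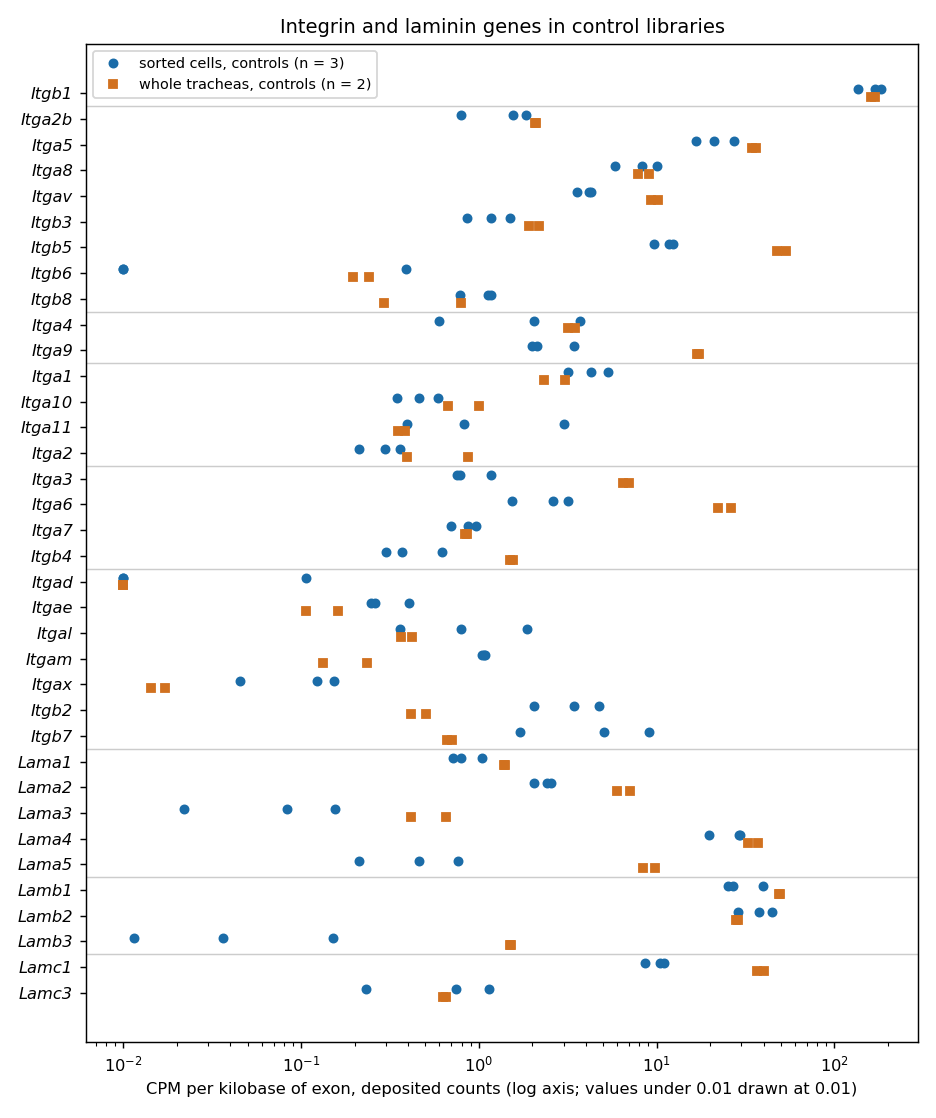
CPM per kilobase of exon (log axis, values under 0.01 drawn at 0.01) of 36 of the 37 integrin and laminin genes in each control library, with sorted cells as blue circles (n = 3) and whole tracheas as orange squares (n = 2); thin lines separate the groups of receptors and chains. Itgb1 is highest in both, and Lama5, Lamb3, Itga3 and Itga6 lie to the right in tracheas.

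The sorted cells ask what the loss of Bmp4, a growth factor of the BMP family, changes in the tracheal mesenchyme. In the deposited counts 21 of 37 members were higher in the Bmp4 mutants and 0 were lower by edgeR's quasi-likelihood test (adjusted p under 0.05, Benjamini-Hochberg). The same test called 39.3% of all 21665 genes higher and 15.6% lower, 54.9% in all. At an unadjusted p under 0.05, 23 of the 37 members passed, all of them higher, where 13250 of the 21665 genes passed. DESeq2 called 22 members higher and 0 lower, where it called 9050 higher and 3605 lower of 22857 genes. The median log2 fold change was 1.91 over the members and 0.53 over all genes tested. Both mutants were above all controls for 24 members, where this held for 48.2% of all genes, and below all controls for Lamb2 alone, where this held for 25.6%. Of the 21 called members, 14 were integrins (of 26) and 7 were laminins (of 11). Without mutant 1 the count fell to 8 of 37, where 17.2% of all genes were called. When library sizes were scaled on genes well above the background described next, 26 members were higher and 0 lower, and 45.2% of all genes were called higher and 3.83% lower (49.1% in all). That scaling moved the median of all genes from 0.53 to 0.91.

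These calls coincide with counts that the mutant libraries hold in genes nearly silent in controls. In 5097 genes with at most 2 counts in each control, the controls had at most 0.128 counts per kilobase of exon in any class of exon number. The mutants had 13.8 and 12.9 counts per kilobase in genes of 1 exon and 8.16 and 7.94 in genes of 2 exons. In genes of over 20 exons they had 34.3 and 31.3. In the tracheas the 5097 genes together had at most 1.05. These counts are called the background here, and genes switched on in the mutants would enter it too. It was described by 5.09 counts per kilobase plus 5.17 counts per exon in mutant 1, and by 4.92 and 4.57 in mutant 2. It made up 10.9% and 8.21% of the mutants' counts. Integrin and laminin genes have many exons, with a median of 30 against 7 over all genes, so their background is high.

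Several called members held counts in the mutants near or under this background. Lama3, the alpha chain of the laminin that anchors epithelia, had 389 and 294 counts in the mutants against a background of 447.7 and 399.9, and 12, 76 and 43 counts in the deeper controls. Its log2 fold change was 4.59 ± 0.74 (SE, adjusted p = 0.0033). Itgad, a beta2-integrin alpha chain of leukocytes, had 242 and 138 counts against a background of 192.5 and 171.8, and 0, 0 and 22 counts in the controls. Lama5, the main alpha chain under epithelia, had 466 and 193 counts against 466.5 and 416.7, and 123, 239 and 420 in the controls. For these genes the mutant counts lie at the level seen in genes that the controls do not express.

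Silent genes with 15 or more exons give the spread: in 141 of them the median was 0.841 times the background in mutant 1 and 0.887 times in mutant 2. The 5th percentile was 0.123 and 0.174 times. The 95th percentile, taken as the limit, was 1.92 times in mutant 1 and 1.71 times in mutant 2. At or under these limits in both mutants were 11 of 37 members: Itga2, Itga2b, Itga10, Itgad, Itgax, Itgb6, Itgb8, Lama3, Lama5, Lamb3 and Lamc3. Of the 21 called members, 8 were among them, 6 were above in 1 mutant and 7 were above in both. These 7 included Itga6, Itga8, Itgae, Itgam, Itgb3 and Lamb1. Lamb1 stood highest at 20.2 and 28.1 times the background, followed by Itga8 at 5.39 and 12.6 times. Itgb3, the beta chain of platelets, osteoclasts and vessels, was at 4.17 and 3.75 times, and Itgam, a macrophage chain, at 2.62 and 1.84 times. In the deposited counts platelet markers were above all controls in both mutants for 5 of 7 genes (sum 25.3 and 18.4 against 4.69 to 7.33 CPM) and leukocyte markers for 4 of 8 (338 and 319 against 223 to 453), where 48.2% of all genes were. After subtraction of the background this held for 2 of the 7 platelet markers (sum 15 and 8.6 CPM) and 4 of the 8 leukocyte markers. It then held for 21.6% of all genes above the background. The part of platelets and leukocytes in these results was not tested.

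By role, the called members that did not reach 3 times the background were the following, in deposited CPM, mutants before controls. Of the laminin-binding chains, Itga3 was at 35.3 and 10.99 against 4.10, 6.13 and 3.97, and Itga7 at 30.1 and 6.68 against 4.004, 2.89 and 3.60. Itgb4 was at 39.7 and 13.53 against 2.34, 3.95 and 1.91, and Itga6 at 25.2 and 22.6 against 6.72, 11.4 and 13.9. In all 4 both mutants exceeded all controls, and in Itga3, Itga7 and Itgb4 mutant 1 was far above mutant 2. At 0.848 to 1.3 times the background, mutant 2 lay within the spread of the silent genes for these 3. Smooth muscle and epithelial markers were also higher in mutant 1, 1650 against 287 CPM and 121 against 75.1 CPM, and their part was not tested.

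The collagen-binding chains Itga2 (15.1 and 11.8 against 1.496 to 2.56) and Itga10 (22.4 and 8.95 against 1.75 to 2.97) lay in both mutants within the spread of the background. Itga1, the collagen IV receptor chain, was not called, at 42.7 and 21.8 against 58.2, 46.8 and 34.7. Of the RGD-binding chains, Itgb3 was at 32.6 and 20.6 against 4.96, 6.75 and 8.62, and its platelet partner Itga2b at 20.5 and 8.89 against 2.73, 5.32 and 6.32. Itgav, the vitronectin receptor chain, was at 28.9 and 36.5 against 30.2, 25.1 and 29.4, which overlap.

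Of the leukocyte chains, Itgae was at 26.0 and 17.1 against 0.949 to 1.56, Itgal at 38.9 and 15.7 against 2.31, 11.9 and 5.07, Itgam at 34.6 and 16.8 against 5.12 to 5.30, and Itgax at 9.86 and 4.25 against 0.195 to 0.665. Mutant 1 was the higher in each. Itga4, which also marks blood cells, overlapped at 46.2 and 22.5 against 5.84, 19.9 and 36.4. Of the laminins, Lama1 was at 56.2 and 31.0 against 6.86 to 9.89 and Lama2 at 53.8 and 42.0 against 20.1, 23.7 and 25.1. Lamb3, an epithelial beta chain, was at 11.6 and 7.48 against 0.0586 to 0.772. The mutants exceeded all controls for these laminins, and Lamb3 held 0.903 and 0.837 times its background.

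**Figure D2:**
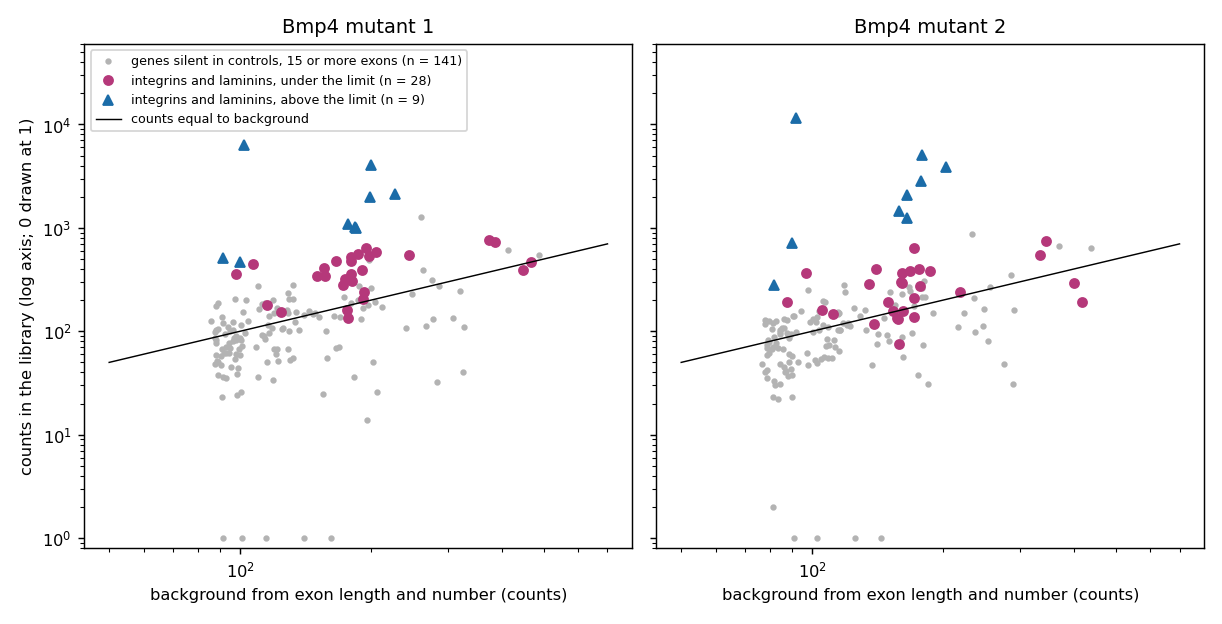
Counts of each gene in Bmp4 mutant 1 (left) and mutant 2 (right) against the background computed from its exon length and number, both in counts on log axes. Grey points are the 141 silent genes with 15 or more exons, pink circles the 28 integrin and laminin genes under 3 times the background on average over the 5 libraries, blue triangles the 9 above it; the line marks counts equal to the background. Many pink circles lie among the grey points.

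A limit of 3 times the background on the mean over all 5 libraries left 9 of 37 members: Itga5, Itga8, Itgb1, Itgb5, Itgb7, Lama4, Lamb1, Lamb2 and Lamc1. The other 28, among them 19 of the 21 called higher, were not tested further. In the deposited counts 2 of the 9, Itga8 and Lamb1, were among the 21 called higher and 0 were lower, where 4.69% of the 9855 genes above this limit were called higher and 33.6% lower. The untested members include the 4 laminin-binding chains Itga3, Itga6, Itga7 and Itgb4 and the 4 collagen-binding alpha chains. For 8 of the 9 the control mean alone was at least 3.52 times the background, and Itgb7, whose controls were at 2.16 times, passed through the mutants. Itga1, whose controls were at 3.12 times, fell under the limit through the mutants. At a limit of 2 times it was tested, at -0.70 ± 0.45 (edgeR, adjusted p = 0.37). The choice of members tested therefore depended on the mutants in both directions. After subtraction of the background 0 of 9 members passed edgeR's test, which called 1.61% of 9855 genes, 1.21% higher and 0.406% lower. At an unadjusted p under 0.05, 3 of the 9 passed, where 2362 of the 9855 genes did. The median log2 fold change of the 9 was 0.37 against -0.01 over all genes tested. Both mutants were above all controls for 6 of 9, where this held for 21.6% of all genes.

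Lamb1, the laminin beta1 chain of most embryonic basement membranes (ENSMUSG00000002900, chr12:31265234-31329644 in mm10, plus strand), had the lowest adjusted p of the 9. After subtraction the mutants held 411 and 352 CPM, and the controls 145, 217 and 139. The groups did not overlap, and both mutants were above the highest control. The log2 fold change was 1.19 ± 0.23 (SE) with an adjusted p of 0.0603, short of the threshold. In the deposited counts it was 0.70 ± 0.22 with an adjusted p of 0.0288.

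Itga8 (ENSMUSG00000026768, chr2:12106632-12301922, minus strand), which pairs with Itgb1 to bind nephronectin, was at 86.4 and 139 CPM after subtraction in mutants 1 and 2, against 31.1, 54.9 and 45.5 CPM in controls. Again both mutants were above all controls, and mutant 2 was the higher. The log2 fold change was 1.37 ± 0.30 with an adjusted p of 0.0718, and in the deposited counts 1.03 ± 0.28 with an adjusted p of 0.0171. An antisense gene is annotated over its first exon, and the strand setting of the counting is not given in the sources used here, so reads of both cannot be told apart. Lama4, the alpha chain of vessels and mesenchyme, was at 205 and 267 CPM against 163, 169 and 112. The groups did not overlap here either, with 0.67 ± 0.23 and an adjusted p of 0.149.

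The remaining 6 differed less or overlapped. Itgb1 was at 658 and 835 CPM against 638, 608 and 489, Lamc1 at 89.6 and 79.1 against 76.6, 62.0 and 75.1, and Itgb5 at 38.8 and 45.3 against 38.5, 30.7 and 37.8. Both mutants were above the controls for these 3 by small margins, with log2 fold changes of 0.37, 0.24 and 0.24 and adjusted p from 0.283 to 0.48. Itga5, the fibronectin receptor chain, was at 97.3 and 94.7 CPM within the 68.7 to 110 of its controls (log2 fold change 0.12 ± 0.21). Lamb2, the beta2 chain of muscle and vessel laminins, was at 192 and 193 against 231, 200 and 153 (-0.01 ± 0.20), where the deposited counts gave -0.44 ± 0.21 (adjusted p = 0.113). Itgb7 ranged from 14.3 to 45.0 in the mutants and from 4.2 to 22.9 in the controls.

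**Figure D3:**
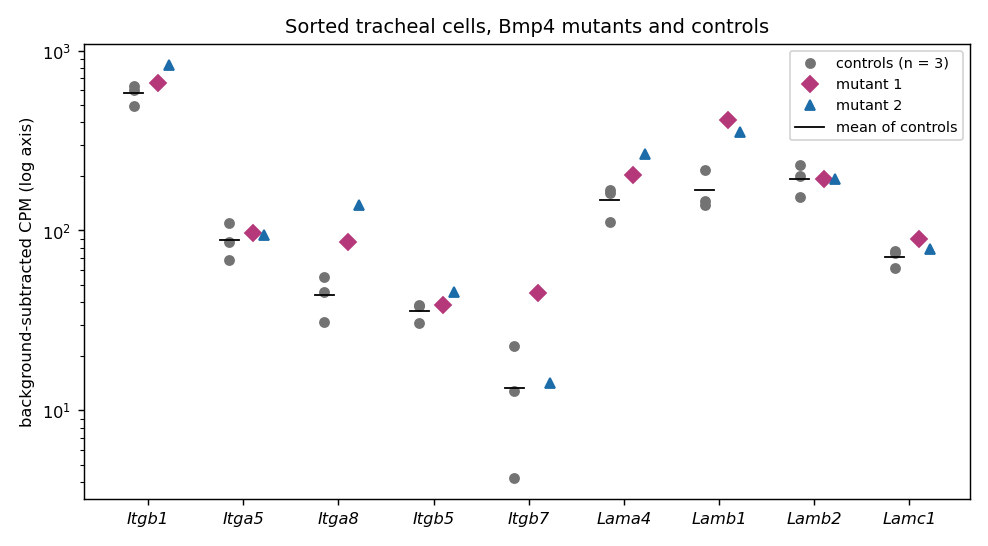
Background-subtracted CPM (log axis) of the 9 members above 3 times the background in the sorted cells. Grey circles are the 3 controls with their mean as a bar, pink diamonds Bmp4 mutant 1 and blue triangles Bmp4 mutant 2. For Itga8, Lama4 and Lamb1 both mutants lie above all controls, and for Itga5, Itgb7 and Lamb2 the groups overlap.

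The side of the threshold on which these members fall moved with the limit. At 2 times the background 14 members were tested and 2 were called, Lamb1 (1.17 ± 0.23, adjusted p = 0.0473) and Itgb3 (2.10 ± 0.40, adjusted p = 0.0435), where 4.66% of 11315 genes were called, 3.38% higher and 1.27% lower. The controls of Itgb3 were at 0.88 times the background, so it passed that limit only through the mutants and its call is no support. With the background taken per kilobase alone, 16 members were tested and 1 was called, Lama2 (1.23, adjusted p = 0.0479), where 2.77% of 10612 genes were called, 2% higher and 0.773% lower. The controls of Lama2, a chain of muscle basement membrane, were at 2.02 times that background, under the limit of 3, so it too passed only through the mutants and its call is no support. Without mutant 1 the log2 fold changes after subtraction were 1.07 for Lamb1, 1.67 for Itga8 and 0.85 for Lama4, and without mutant 2 they were 1.31, 0.99 and 0.48. In these fits the lone mutant is taken to vary as the controls do. Without mutant 1 the fit called 0 of all 9855 genes, so its 0 calls say nothing of the members, and without mutant 2 it called 0 of the 9 members and 2.32% of all genes. After subtraction endothelial markers were above all controls in both mutants for 5 of 8 genes and smooth muscle markers for 5 of 9, where 21.6% of all genes above the background were. Their sums were 226 and 174 CPM (endothelium) and 1790 and 266 CPM (muscle), against 26.6 to 124 and 122 to 185 in the controls. Cartilage markers were below all controls for 5 of 8 genes, where 22.3% of all genes were, with sums of 370 and 1170 CPM against 1990 to 3860. The part of these cell types in the results was not tested.

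The upstream sequences of the beta chains Lamb1 and Lamb2 are shown because these chains fill the same place in the trimer, overlapped in level in the control sorted cells and had unlike fold changes, a difference that was not tested. Both are from RefSeq on GRCm38.p6 and stop before the gene start in GENCODE, which lies before the RefSeq start, 5′ to 3′ on the plus strand. Lamb1 covers chr12:31265043-31265233 and Lamb2 covers chr9:108479612-108479735. Capitals mark matches, on either strand, to the GC box GGGCGG, the TATA box TATAAA, the TCF/LEF core CTTTGA or the GC-rich SMAD motif GGCGCC.
Lamb1: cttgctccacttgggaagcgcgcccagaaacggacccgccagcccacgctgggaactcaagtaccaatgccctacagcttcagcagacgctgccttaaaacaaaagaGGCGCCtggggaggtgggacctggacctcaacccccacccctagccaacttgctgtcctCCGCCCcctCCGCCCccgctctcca
Lamb2: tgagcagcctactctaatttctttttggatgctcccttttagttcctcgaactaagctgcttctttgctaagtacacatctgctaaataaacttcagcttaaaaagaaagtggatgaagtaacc
Lamb1 holds GGGCGG on the minus strand with first bases 84 and 75 before the RefSeq start, and GGCGCC at 143, while Lamb2 holds none of the 4. Over the 250 bases before the start, GGGCGG was found in 32.7% of 32851 RefSeq promoters, TATAAA in 12.4%, CTTTGA in 13.8% and GGCGCC in 9.59%. Among the 26 promoters of the 23 members with an entry they were found in 9, 0, 4 and 3. The GC content of the shown stretches was 63.9% for Lamb1 and 37.9% for Lamb2.

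The whole tracheas ask what changes when the epithelium cannot secrete Wnt proteins. Here 2 of 35 members tested were lower in the Wls mutant and 0 were higher by edgeR's test, where 2.39% of 15815 genes were called lower and 1.88% higher, 4.27% in all. Itgad and Itgax, leukocyte alpha chains with at most 2 counts in any trachea, were not tested. At an unadjusted p under 0.05, 7 of the 35 passed, all of them lower, where 2255 of the 15815 genes passed. DESeq2 called 1 member lower and 0 higher, where it called 155 lower and 104 higher of 14320 genes. The edgeR fit rests on 1 residual degree of freedom, since the lone mutant is taken to vary as the controls do. By the rule of size that needs no such assumption (a difference of at least 1 in log2 CPM, outside the controls by more than they differ, at a mean log2 CPM of at least 3) 0 members passed, where 0.493% of genes passed as lower and 0.253% as higher. The mutant was below both controls for 21 members and above both for 9, where 37.6% and 36.9% of all genes did so. The median log2 fold change was -0.16 over the members and -0.01 over all genes tested.

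Lama4 (ENSMUSG00000019846, chr10:38965515-39110188, plus strand) had 115 CPM in the mutant trachea and 197 and 226 CPM in the controls. The mutant lay under both controls by more than they differed from each other. The log2 fold change was -0.88 ± 0.19 (SE, n = 1 against 2, edgeR adjusted p = 0.00036). Lamb2 (ENSMUSG00000052911, chr9:108479736-108490530, plus strand) had 105 CPM against 158 and 162, again under both controls, with a log2 fold change of -0.61 ± 0.18 and an adjusted p of 0.0267. By DESeq2 Lama4 passed with an adjusted p of 0.000922 and Lamb2 did not, with 0.0654. These chains can join with gamma1 in 1 trimer, the laminin of small vessels, smooth muscle and nerve. Endothelial markers were below both controls for 7 of 8 genes (sum 320 CPM against 407 and 471), while smooth muscle markers were above both for 7 of 9 (2770 against 2010 and 1750). Cartilage markers were below both for 6 of 8 (388 against 1130 and 998). Of all genes, 37.6% were below both controls and 36.9% above both. The part of these cell types in the result was not tested.

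All 5 laminin alpha chains were under both trachea controls, where 37.6% of all genes were, with a median log2 fold change of -0.41, and Lama4 alone passed the test. Lama5 was at 77.8 CPM against 95.8 and 111 (-0.41 ± 0.18, adjusted p = 0.219), Lama2, the muscle chain, at 57.2 against 58.7 and 69.8, Lama1, the chain of the earliest embryonic basement membranes, at 10.7 against 13.3 and 13.4, and Lama3 at 4.30 against 4.48 and 7.03. The epithelial markers were not lower as a sum in this library, at 1230 CPM against 872 and 742. Of the 12, 9 were above both controls and 3 below both, where 36.9% and 37.6% of all genes were. The beta and gamma chains did not share a direction. Lamb1 was at 319 CPM against 288 and 284 (0.16 ± 0.19, adjusted p = 0.805), and Lamb3 at 9.42 against 7.81 and 7.68. Lamc1 was at 265 against 280 and 305 (-0.14 ± 0.19). Lamc3, a gamma chain of low level, was at 1.76 against 3.85 and 3.67 CPM (-1.09 ± 0.42, adjusted p = 0.144).

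Among the integrins 0 of 24 tested passed in the tracheas. At an unadjusted p under 0.05, 3 of the 24 passed, where 2255 of all 15815 genes did. Itgb1 was at 654 CPM against 644 and 614 (0.06 ± 0.21), a difference smaller than its error. The RGD-binding chains lay on both sides: Itga5 at 150 against 159 and 150, Itgav at 61.2 against 65.5 and 71.5, Itgb5 at 138 against 182 and 161 (-0.31 ± 0.18, adjusted p = 0.457), and Itga8 at 57.6 against 45.7 and 52.6 (0.23 ± 0.18, adjusted p = 0.627). None of these differences passed the test.

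All 4 laminin-binding chains were under both controls, where 37.6% of all genes were, with log2 fold changes from -0.53 to -0.09 and a median of -0.36. Itga6, which pairs with Itgb4 under epithelia and with Itgb1 elsewhere, was at 89.0 CPM against 97.2 and 114, and Itga3, also of epithelia, at 33.3 against 36.8 and 34.1. Itgb4, the hemidesmosome chain, was at 6.76 against 9.90 and 9.61 (-0.53 ± 0.27, adjusted p = 0.365). Itga7, the muscle chain, was at 2.54 against 3.47 and 3.54. None of the 4 passed the test.

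Of the 4 collagen-binding chains, Itga1 came nearest to the threshold, at 19.4 CPM against 25.4 and 33.4 (-0.60 ± 0.20, adjusted p = 0.0558). Itga2 was at 2.54 against 2.80 and 6.19, Itga10, the cartilage chain, at 2.54 against 3.40 and 5.04, and Itga11 at 1.80 against 1.91 and 1.74, within its controls. Itga9, which binds tenascin-C, was at 122 against 121 and 124, and Itga4, which binds VCAM1 and fibronectin, at 35.4 against 30.9 and 33.9. The leukocyte chains were at 2.69 CPM or less in every trachea. Of these Itgb7 had the lowest fold change, 0.78 against 1.91 and 1.77 CPM (-1.23 ± 0.56, adjusted p = 0.267).

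**Figure D4:**
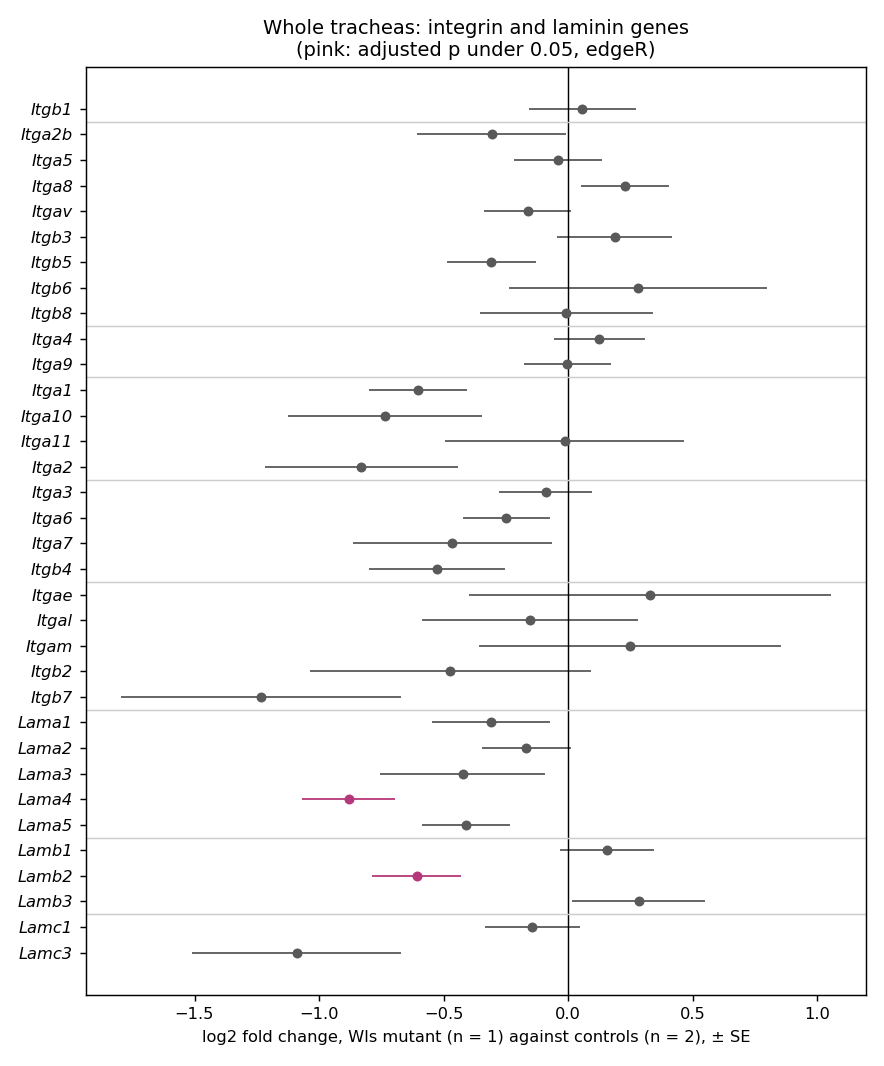
Log2 fold change (± SE, edgeR) of 34 of the 35 integrin and laminin genes tested in whole tracheas, 1 Wls mutant against 2 controls, ordered by receptor and chain group; pink marks an adjusted p under 0.05. Lama4 and Lamb2 are marked at -0.88 and -0.61, and all 5 laminin alpha chains and all 4 laminin-binding integrins lie left of 0.

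Side by side, Lama4 was lower in the Wls mutant trachea (-0.88) and had a fold change of the other sign, short of the threshold, in the Bmp4 mutant cells after subtraction (0.67). Lamb2 was lower in the trachea (-0.61) and at -0.01 in the sorted cells after subtraction. In their deposited counts it was at -0.44 (edgeR adjusted p = 0.113). Lamb1 and Itga8 had positive values in both, 0.16 and 0.23 in the trachea and 1.19 and 1.37 in the sorted cells, none past the threshold. The comparisons have no library in common, and the difference between them was not tested.

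The partners of these genes were followed in 3 lists. The first, adhesion machinery, holds 32 genes that link integrins to actin or sit beside them in the membrane. In the tracheas 1 was higher and 3 were lower, where 1.88% and 2.39% of all genes were. The list median was -0.06 against -0.01 over all genes tested. Tln2, a talin that activates integrins, was at 112 CPM against 62.2 and 72.2 (0.74 ± 0.17, adjusted p = 0.00123). The tensins, which tie beta1 integrins to actin in long-lived adhesions, were the 3 lower genes. Tenc1 (also named Tns2) was at 67.5 against 99.2 and 115, Tns1 at 128 against 198 and 205, and Tns3 at 204 against 295 and 330, with log2 fold changes of -0.67, -0.65 and -0.62 and adjusted p of 0.00998, 0.0177 and 0.0425. In the sorted cells 4 of the 32 were higher and 8 lower in the deposited counts, where 39.3% and 15.6% of all genes were. After subtraction 0 of the 26 above the background passed, where 1.61% of all genes did. At an unadjusted p under 0.05, 8 of the 26 passed, where 2362 of all 9855 genes did. The list median was -0.19 in the deposited counts and 0.12 after subtraction. Fermt1, the epithelial kindlin, had a log2 fold change of 6.07 ± 0.68 in the deposited counts at 1.55 and 2.19 times the background. Cd151, a tetraspanin partner of laminin-binding integrins, was lower in the deposited counts at -1.12 ± 0.26 (adjusted p = 0.00917) and at -1.01 with an adjusted p of 0.115 after subtraction. Tns3 (-0.80 ± 0.21, adjusted p = 0.014) and the kindlin Fermt2 (-0.59 ± 0.16, adjusted p = 0.0166) were also lower in the deposited counts. After subtraction Tns3 was at -0.58 (adjusted p = 0.152) and Fermt2 at -0.11 (adjusted p = 0.655), with overlapping groups for Fermt2.

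The second list holds 21 partners of laminin in basement membranes. In the tracheas 0 were higher and 2 were lower, where 1.88% and 2.39% of all genes were, with a list median of -0.21. The mutant was below both controls for 14 and above both for 4, where 37.6% and 36.9% of all genes were. Col15a1, a collagen of vessel and muscle basement membranes, was at 41.6 CPM against 90.6 and 109 (-1.27 ± 0.19, adjusted p = 2.87e-08). Nid2, which links laminin to collagen IV, was at 111 against 162 and 173 (-0.59 ± 0.18, adjusted p = 0.0329). In the sorted cells 9 of the 21 were higher and 1 was lower in the deposited counts, where 39.3% and 15.6% of all genes were. After subtraction 0 of the 12 above the background passed, where 1.61% of all genes did. At an unadjusted p under 0.05, 5 of the 12 passed, where 2362 of all 9855 genes did. Among the 9 were Col4a4 (6.8 ± 1.02), Col4a3 (4.92 ± 0.64) and Col4a6 (1.40 ± 0.35), collagen IV chains that lay at 0.982 to 1.41 times the background in the mutants. The 1 lower gene was Agrn, a laminin-binding proteoglycan, at -0.98 ± 0.15 (adjusted p = 0.0033) in the deposited counts and -0.69 ± 0.14 (adjusted p = 0.0695) after subtraction. Of the 12, those nearest to the threshold after subtraction, named after their values were seen, were Nid1 (1.39 ± 0.24, adjusted p = 0.0514), Nid2 (1.27 ± 0.22, adjusted p = 0.0525) and the collagen IV chain Col4a2 (0.91 ± 0.17, adjusted p = 0.0561). Both mutants were above all controls for these 3, and Nid2 was lower in the Wls mutant trachea.

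The third list holds 18 other ligands of integrins. After subtraction 1 of the 13 above the background passed in the sorted cells, where 1.21% of all genes were called higher. This was Thbs2, a thrombospondin, at 599 and 565 CPM in the Bmp4 mutants against 223, 292 and 196 in the controls (1.30 ± 0.20, adjusted p = 0.0425). Its log2 fold change stayed between 1.17 and 1.48 without each replicate in turn, but the call was lost each time. The adjusted p was 0.0794 to 0.153 without each control and 0.338 with the replicate block. These fits called 0 of all 9855 genes, so the loss in them says nothing of Thbs2. The same holds for the fit without mutant 1, as described above. Thbs2 passed with the background per kilobase (0.0411) and at the limit of 2 times (0.0321). In the deposited counts 5 of the 18 were higher and 1 was lower, where 39.3% and 15.6% of all genes were. Thbs2 (0.78 ± 0.20) and Tnc, tenascin-C (1.37 ± 0.44), lay at 19 or more times the background, while Svep1 (1.78 ± 0.28) and Vtn, vitronectin (7.16 ± 1.07), lay at 0.865 to 1.81 times. In the tracheas 1 was higher and 0 were lower, where 1.88% and 2.39% of all genes were. At an unadjusted p under 0.05, 4 of the 18 passed there, where 2255 of all 15815 genes did. Tnc, the ligand of alpha9 beta1, was at 251 CPM in the Wls mutant against 143 and 154 (0.76 ± 0.18, adjusted p = 0.00136).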

How the data were processed

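RNA was sequenced from 5 sorted-cell and 3 trachea libraries. The deposited values are whole-number counts per gene symbol, used as the authors deposited them. Per the submitters' processing notes Bowtie2, Cufflinks and DESeq with the mouse build mm10 were used, and Trim Galore for the sorted cells; for the counting program, its strand setting and the annotation the labels used here give no name. Per the labels' protocols the sorted cells were amplified with SMART-Seq v4 and the tracheas with Ovation v2.

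Within each table mutants were compared with controls in R 4.3.3 with edgeR 4.0.16 (TMM scaling, default expression filter, quasi-likelihood F test, two-sided, Benjamini-Hochberg adjustment over all genes tested, threshold 0.05). Every adjusted p is from edgeR unless DESeq2 1.42.0 is named. CPM carry TMM factors, except in sums over markers and in marker genes. SEs follow from each fold change and its F value. Exon lengths came from GENCODE M21 for 23110 of 23478 symbols. The background of the Bmp4 mutants was fitted on genes with at most 2 counts in each control by exon length and exon number and subtracted from each mutant; this form was chosen after seeing the data, and the planned one used length only. A gene entered the subtracted test when its mean CPM over the 5 libraries reached 3 times the mean background of the mutants. The fits were tested on simulated data.

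Values per library are given for members that passed in either table or had a mean control level of at least 20 CPM, and by role for the others. From each partner list up to 4 genes with the lowest adjusted p are named per test (Ccn1 had no row), with Cd151 and Agrn followed after subtraction. 1 member and 1 allele are not reported here by name, though counts over the members include that gene. The members and lists were chosen with earlier results of these data known. Alternatives were DESeq2, no expression filter, other scalings, other backgrounds, a replicate block and leaving out each library. Replicates differed by 24.5 to 193 times counting variance per degree of freedom, so each was counted once. Counts carry no molecular identifiers.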

Additional observations from a re-analysis of the deposited data

How the results depend on the processing

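In the sorted cells, where 21 members were called from the deposited counts, DESeq2 called 22, no filter 21 and scaling from genes above the background 26. Of all genes these fits called, in the same order, 11888 of 21665, 12655 of 22857, 12463 of 22861 and 10631 of 21665. Subtraction of the background per kilobase left 1 call of 16 tested (Lama2, 1.23, adjusted p = 0.0479, which passed the limit only through the mutants) and subtraction by exon length and number left 0 of 9. Leaving out each replicate gave 8 to 24 calls, with 8 without mutant 1. After subtraction by exon length and number 0 members were called in the main test, without each replicate in turn and with the replicate block, 2 at a limit of 2 times the background and 1 with the subtraction per kilobase. Of all 9855 genes that subtracted test called 0 without mutant 1, without each control and with the block, so these 0s say nothing of the members, and 229 without mutant 2. In the tracheas 2 were called, 1 by DESeq2, 2 without a filter and 2 without TMM. Of all genes these fits called, in the same order, 676 of 15815, 259 of 14320, 679 of 19068 and 437 of 15815. Leaving out a trachea control leaves no test; Lama4 was then at -0.96 and -0.78, and Lamb2 at -0.62 and -0.59.

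Mutants and controls of the sorted cells share the replicate numbers 1 and 2 in the labels. With the replicate block 0 of 37 members were called (23 at an unadjusted p under 0.05) and 4 of 21665 genes (9833 at that unadjusted p). The deviations of same-numbered libraries correlated at -0.17 and -0.11. With 2 mutants the mutant deviations are mirror images, so these values cannot tell whether such libraries share more than a number.

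Signs changed only for members that were not called from all libraries. Itga5, Itgb1, Itgb5 and Lamc1, negative in the deposited counts, were at 0.16, 0.22, 0.34 and 0.32 with scaling from genes above the background. They were at 0.19, 0.32, 0.31 and 0.27 with the subtraction per kilobase and at 0.12, 0.37, 0.24 and 0.24 with that by exon length and number. Itgb5 was at 0.0039 with the block, and over the fits without 1 replicate Itgb1 ranged from -0.43 to 0.077, Itgb5 from -0.21 to 0.069, Lama4 from -0.012 to 0.46 and Lamc1 from -0.23 to 0.011. After subtraction Lamb2 ranged from -0.16 to 0.13 and Itga5 from -0.033 to 0.31 over such fits, and Itga5 was at -0.022 with the block. In the tracheas Itga9 and Itgb8 were at 0.0023 and 0.0074 by DESeq2 and at 0.0016 and 1.4e-05 without a filter. Itga5 and Itga11 were at 0.016 and 0.061 without trachea control 1, and Itga9, Itgam and Itgb8 at 0.013, -0.11 and 0.88 without control 2, against -0.041, -0.014, -0.0037, 0.25 and -0.0073 with both. The cause was not tested. Depth was lowest in the Bmp4 mutants.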
